A study of Homo sapiens with 12 samples.

Results

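The 10 genes described here, AFP, ALB, GPC3, DLK1, IGF2, H19, EPCAM, SOX9, TTR and LYZ, are markers of hepatoblasts and of oncofetal liver, meaning genes that are active in the fetal liver and again in liver tumours. They were found by their symbols, as 10 of the 58174 genes listed for each of 2 cell lines. Poly-A RNA of Hep-G2 cells, a human hepatoblastoma-derived line, and of BE(2)-C cells, a human neuroblastoma line, was sequenced. The cells had received siRNA 72 h before, either a pool that targets IGF2BP1 (siI1) or a control (siC). There were 4 groups of 3 libraries each, 12 in all, and per the study's methods more siRNA was used for BE(2)-C than for Hep-G2 cells. The methods call the 3 libraries of a group biological replicates. The p-values from limma given here set a difference against the spread between such libraries, which limma estimates with the help of the other genes.

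Hepatoblasts are the bipotent progenitors of the embryonic liver, from which hepatocytes and the cells of the bile ducts arise. The AFP gene encodes alpha-fetoprotein, the main plasma protein of the fetus, and is shut down after birth while its neighbour ALB, encoding serum albumin, stays on. IGF2BP1 is itself an oncofetal RNA-binding protein, named for its binding to the mRNA of the fetal growth factor IGF2.

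Levels are given as FPKM, the reads of a gene scaled by its length and by the size of the library, so that genes of different length can be compared within a cell line. The values of the cell lines were normalized separately, and levels set side by side across them were not tested. The libraries held from 12852988 to 15721210 reads that fell on genes.

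The target of the siRNA pool was lower in every siI1 library. Hep-G2 cells had 48.6, 46.6 and 50.8 FPKM of IGF2BP1 with siC, against 12.6, 10.7 and 10.7 with siI1. For BE(2)-C cells the values were 21.3, 20.7 and 21.6 with siC and 4.85, 4.75 and 4.87 with siI1. On the log2 scale IGF2BP1 changed by -2.10 ± 0.08 in Hep-G2 (SE, adjusted p = 7.8e-06 from limma) and by -2.11 ± 0.05 in BE(2)-C (SE, adjusted p = 1.5e-05), with 3 libraries per siRNA. The difference between the cell lines was 0.02, with a 95% confidence interval of -0.19 to 0.22.

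Both cell lines carried the markers of their tissue of origin. All 8 hepatocyte lineage markers, led by APOA1, had a mean of at least 1 FPKM in Hep-G2, where they summed to 3000, 3080 and 3000 FPKM with siC. The same list summed to between 0.256 and 0.434 FPKM in BE(2)-C, with HNF4A, FOXA2 and FGB at 0 in all 6 libraries. The 10 sympathoadrenal markers, led by MYCN, summed to between 3700 and 4070 FPKM in BE(2)-C and to between 0.0245 and 0.269 FPKM in Hep-G2. Upon knockdown the hepatocyte lineage sum in Hep-G2 was 5980, 7230 and 7460 FPKM, most of it from APOA1 with 3320, 4390 and 4600. In bulk RNA fewer cells of a kind and less RNA per cell cannot be told apart.

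**Figure D1:**
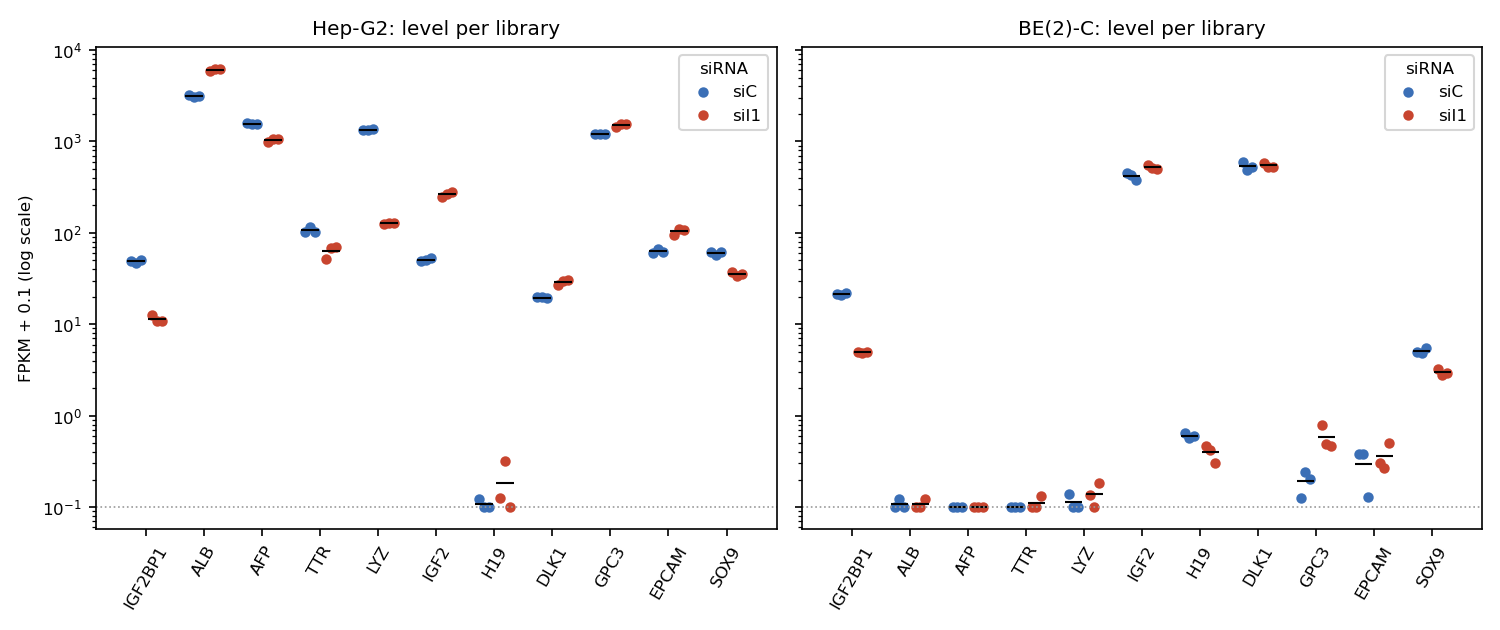
Level of IGF2BP1 and of the 10 markers in each library of Hep-G2 (left) and BE(2)-C cells (right), as FPKM + 0.1 on a log axis, with a point per library, a line at the mean of 3 libraries and a dotted line at 0 FPKM. ALB, AFP, LYZ and TTR stand far above the dotted line in Hep-G2 and on or next to it in BE(2)-C, whereas IGF2 and DLK1 are abundant in BE(2)-C.

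Of the 10 markers, 9 were expressed highly enough for a test in Hep-G2, reaching 0.1 FPKM in 3 or more of its 6 libraries, and H19 was not. Upon IGF2BP1 knockdown AFP, TTR, LYZ and SOX9 fell, 4 of 9, while 23.0% of all 19436 tested genes were called lower. ALB, IGF2, DLK1, GPC3 and EPCAM rose, 5 of 9, while 21.9% of all tested genes were called higher. In all 9 the siC and siI1 libraries did not overlap, which was the case for 55.8% of all tested genes. Since so many genes changed in Hep-G2, these counts are set beside the background only as a description.

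Among the plasma proteins, AFP and ALB, which encode related carrier proteins and lie side by side on chromosome 4, changed in opposite directions. AFP is annotated at chr4:73431138-73456174 and ALB at chr4:73397114-73421482 (GENCODE v44, hg38), both on the plus strand with 9655 bases between them. The gap is that between these GENCODE spans, and the RefSeq start sites of ALB and AFP used below lie inside them. The next gene of the family, AFM, encoding the vitamin E-binding afamin, lies 25570 bases beyond AFP. Of the 10 markers, 3 (AFP, ALB and H19) had an entry in the RefSeq table of promoter sequences. The 250 bases before the start sites of ALB, AFP and AFM are shown since these neighbours did not change alike. Capitals mark TATAAA, one form of the TATA box, searched on both strands, and other forms were not searched. The windows are at chr4:73404037-73404286 for ALB, chr4:73435971-73436220 for AFP and chr4:73481495-73481744 for AFM (RefSeq, GRCh38.p14, plus strand), read 5′ to 3′:
ALB: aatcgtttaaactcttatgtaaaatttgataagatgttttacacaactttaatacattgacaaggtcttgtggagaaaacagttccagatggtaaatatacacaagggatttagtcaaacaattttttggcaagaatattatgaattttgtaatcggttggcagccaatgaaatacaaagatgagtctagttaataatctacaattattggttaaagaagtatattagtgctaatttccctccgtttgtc
AFP: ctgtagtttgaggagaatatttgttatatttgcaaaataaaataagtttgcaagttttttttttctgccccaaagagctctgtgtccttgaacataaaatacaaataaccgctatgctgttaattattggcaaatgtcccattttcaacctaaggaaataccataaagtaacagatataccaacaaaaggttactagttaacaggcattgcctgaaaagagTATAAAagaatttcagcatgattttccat
AFM: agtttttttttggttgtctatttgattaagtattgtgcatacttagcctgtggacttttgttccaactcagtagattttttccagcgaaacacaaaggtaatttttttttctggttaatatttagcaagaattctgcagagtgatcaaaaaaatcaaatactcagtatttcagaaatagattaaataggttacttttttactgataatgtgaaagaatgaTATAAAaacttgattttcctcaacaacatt
TATAAA begins 29 bases before the start of AFP and 30 before that of AFM, is not among the letters of the ALB window, and occurs in 10.7% of all 35116 windows of this length. A match of letters does not show that a factor binds, and whether the ALB window holds another form of the TATA box was not tested.

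ALB had 3211, 3085 and 3170 FPKM in the siC libraries of Hep-G2 and 5916, 6209 and 6125 in the siI1 libraries, so that the groups did not overlap. ALB ranked 3 of all genes in each siC library and 2 in each siI1 library, and its share of the counted reads went from between 1.05% and 1.11% to between 2.00% and 2.05%. AFP had 1579, 1565 and 1544 FPKM with siC and 992.1, 1062 and 1065 with siI1. It ranked 6, 6 and 7 among all genes in the siC libraries and 20 in each siI1 library. The log2 fold change was 0.95 ± 0.16 (SE, adjusted p = 0.0032 from limma) for ALB and -0.59 ± 0.10 (SE, adjusted p = 0.0029 from limma) for AFP. On this scale ALB rose 1.93-fold and AFP was 1.5-fold lower, and ALB was no longer called without the expression filter, at an adjusted p of 0.073 from limma.

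Within each library, AFP stood at 0.492, 0.507 and 0.487 of the ALB level with siC and at 0.168, 0.171 and 0.174 with siI1. The ratio was thus 2.90-fold lower upon knockdown, with mean values of 0.495 ± 0.0106 and 0.171 ± 0.00311 (SD, n = 3; two-sided exact permutation p = 0.1, the smallest that 3 libraries against 3 can give). AFM, a low-level gene in the control cells, had 1.49, 1.37 and 1.51 FPKM with siC and 22.4, 19.2 and 18.7 with siI1. GC, encoding the vitamin D-binding protein and also of this family, was counted with 8, 8 and 1 reads in the siC and 34, 25 and 36 reads in the siI1 libraries. Of the 4 genes of the albumin family, 3 were called higher and AFP was called lower, beside 21.9% higher and 23.0% lower of all tested genes. The log2 fold change was 3.69 for AFM (adjusted p = 2.5e-06 from limma) and 2.12 for GC (adjusted p = 0.0067 from limma). The higher calls were 2 without the expression filter and 2 with an FPKM of 1 or more required. None of the 4 was tested in BE(2)-C. AFP, AFM and GC had 0 reads in all 6 BE(2)-C libraries, and ALB had 1 read in each of 2 of them, under a floor of 3 reads per library.

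TTR, encoding the carrier of thyroxine and of the retinol-binding protein RBP4, had 102, 116 and 103 FPKM with siC and 51.5, 69.0 and 69.9 with siI1. The library siI1 1 was the lowest and the groups did not overlap. TTR fell by 0.77 ± 0.13 on the log2 scale (SE, adjusted p = 0.0029 from limma), and its change was between -0.84 and -0.62 when any library was left out. RBP4 rose by 1.45 in the same cells, from a mean of 193 to 527 FPKM. DSG2-AS1, the noncoding gene that starts beside TTR on the opposite strand, had 0 to 14 reads per Hep-G2 library and was not called. TTR itself had a single BE(2)-C library above 0, with 1 read.

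LYZ encodes lysozyme, an antibacterial enzyme of secretions, macrophages and granulocytes. It had 1330, 1332 and 1355 FPKM in the siC libraries of Hep-G2 and 123.9, 128 and 128.5 in the siI1 libraries, that is from between 32035 and 36436 reads to between 2956 and 3287. With siC it was among the 9 most abundant genes, ranking 7, 9 and 8, and with siI1 it ranked 311, 334 and 341. LYZ changed by -3.40 ± 0.06 (SE, adjusted p = 1.4e-06 from limma), 10.6-fold lower, and only 49 of the 19436 tested genes had a larger absolute log2 fold change. Of 7 macrophage markers, CD14 alone reached a mean of 1 FPKM in Hep-G2, and the list summed to between 0.695 and 0.922 FPKM with siC and between 2.22 and 2.76 with siI1. With siC, PTPRC, AIF1 and C1QA were at 0, and CD14, CD163, CD68 and CSF1R had means of 0.765, 0.0118, 0.00981 and 0.00475 FPKM. CD14 was called higher upon knockdown, by 1.38 (adjusted p = 4.9e-04 from limma). The source of the LYZ reads was not tested. The gene AC020656.1 lies antisense within LYZ. It went from 26.4 ± 6.01 to 2.88 ± 0.969 FPKM (SD, n = 3). The libraries were strand-specific per the methods, but whether the counting used the strand is not given in the sources used here, and whether these are reads of LYZ was not tested. LYZ had between 0 and 2 reads per library in BE(2)-C.

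IGF2, the fetal insulin-like growth factor, and the noncoding RNA H19 are neighbours on chromosome 11, with 124559 bases between them, and are oppositely imprinted, IGF2 being expressed from the paternal and H19 from the maternal copy. In Hep-G2 IGF2 had 48.8, 51.0 and 53.0 FPKM with siC and 245, 267 and 279 with siI1. Each siI1 library stood far above each siC library. IGF2 rose 5.16-fold, by 2.37 ± 0.07 on the log2 scale (SE, adjusted p = 3.0e-06 from limma), a larger change than that of 98.4% of the tested genes. BE(2)-C cells already held much IGF2, with 452, 430 and 374 FPKM with siC, and had 558, 506 and 496 with siI1. There the groups were set apart by less, and the change was 0.32 ± 0.08 (SE, adjusted p = 0.032 from limma). This call was lost in 5 of 6 fits that left out a library, with an adjusted p between 0.027 and 0.094, and also without the expression filter (0.067) and without the trend (0.077). The change of IGF2 in Hep-G2 exceeded that in BE(2)-C by 2.05, with a 95% confidence interval of 1.80 to 2.30 (adjusted p = 4.0e-07 from limma).

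H19 was close to its detection limit in both lines. In Hep-G2 it was counted with 1, 0 and 0 reads with siC and with 1, 9 and 0 reads with siI1, so that a single library held most of its reads and no fold change is given. The BE(2)-C counts of H19 were 22, 17 and 20 reads with siC and 16, 13 and 8 with siI1, or 0.542, 0.469 and 0.506 against 0.366, 0.326 and 0.204 FPKM. These groups did not overlap, but the change of -0.63 ± 0.25 was not called (SE, adjusted p = 0.10 from limma), with a 95% confidence interval of -1.21 to -0.05 before adjustment. The antisense gene within IGF2, IGF2-AS, had 1, 1 and 2 reads in the siC and 15, 10 and 20 reads in the siI1 libraries of Hep-G2, and a mean of 14.7 FPKM in the siC libraries of BE(2)-C. Whether the Hep-G2 reads of IGF2-AS come from IGF2 was likewise not tested. INS-IGF2, which shares exons with IGF2, had 0 reads in Hep-G2 and 7 to 19 reads per library in BE(2)-C. MIR483, within IGF2, had 0 reads in the Hep-G2 siC libraries and at most 3 reads in an siI1 library, so that no fold change is given.

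The surface proteins comprised DLK1, a noncanonical Notch ligand of fetal tissues, GPC3, a heparan sulphate proteoglycan anchored to the membrane, and EPCAM, an epithelial adhesion protein of hepatic progenitors. DLK1 had 19.7, 19.6 and 19.2 FPKM in the siC and 26.6, 29.6 and 30.4 in the siI1 libraries of Hep-G2, a rise by 0.56 ± 0.06 (SE, adjusted p = 4.9e-04 from limma). Its level in BE(2)-C was higher, at 602, 493 and 528 FPKM with siC and 587, 525 and 525 with siI1, and these libraries overlapped. The change in BE(2)-C was 0.02 (adjusted p = 0.91 from limma, 95% confidence interval -0.19 to 0.22). The difference between the lines was 0.55 with an interval of 0.30 to 0.79 (adjusted p = 0.0025 from limma).

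GPC3 was among the most abundant genes of Hep-G2, with 1214, 1220 and 1197 FPKM with siC and 1447, 1563 and 1562 with siI1, the lowest siI1 library being above the highest siC library. Its rise of 0.33 ± 0.10 was the smallest among the 9 tested markers (SE, adjusted p = 0.034 from limma). Under other settings the rise was between 0.16 and 0.42. The call was lost in 5 of 6 fits that left out a library, with an adjusted p between 0.0046 and 0.13, and without the expression filter, at 0.17. As GPC3 rose and AFP fell, their order changed. AFP stood above GPC3 in each of the 3 siC libraries, and GPC3 above AFP in each of the 3 siI1 libraries. Few BE(2)-C reads fell on GPC3, namely 1, 5 and 4 reads with siC and 29, 15 and 14 reads with siI1, and the change of 1.62 ± 0.37 (SE, adjusted p = 0.018 from limma) rests on these reads. Its size was between 0.44 and 2.47 under other settings, and the call was lost in 1 of 6 fits that left out a library (adjusted p = 0.062 from limma). The call was also lost with a replicate block (adjusted p = 0.055 from limma). The Hep-G2 change minus that of BE(2)-C was -1.29 ± 0.32 (SE, adjusted p = 0.0078 from limma), but with a pseudocount of 1 the difference was -0.11 and was no longer called (adjusted p = 0.45).

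EPCAM had 60.7, 67.0 and 62.2 FPKM in the siC and 94.3, 110.9 and 108.6 in the siI1 libraries of Hep-G2. The groups lay well apart, and EPCAM rose by 0.72 ± 0.08 (SE, adjusted p = 4.2e-04 from limma), or 1.65-fold. AC106869.1, the noncoding gene that starts next to EPCAM on the opposite strand, went from 0.959 ± 0.313 to 3.43 ± 0.152 FPKM (SD, n = 3). EPCAM had 1 to 14 reads per BE(2)-C library, its groups overlapped and its change was not called (0.39, adjusted p = 0.62 from limma). The change was between -0.13 and 0.65 when a library was left out and between 0.08 and 0.77 under other settings. At this depth the difference of the EPCAM change between the lines was not determined, at 0.33 with a 95% confidence interval of -0.78 to 1.44. This difference was between -0.05 and 0.64 under other settings and between 0.07 and 0.85 when a library was left out. It was called at a pseudocount of 1 (0.64) and without BE(2)-C siC replicate 3 (0.85).

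SOX9, a transcription factor of biliary and progenitor cells, was the only marker that fell in both lines. In Hep-G2 it had 61.2, 57.1 and 62.4 FPKM with siC and 37.6, 33.5 and 35.0 with siI1. Its BE(2)-C values were lower, with 4.90, 4.76 and 5.43 with siC and 3.14, 2.70 and 2.84 with siI1. Neither line had overlapping groups. The change was -0.77 ± 0.06 in Hep-G2 (SE, adjusted p = 1.2e-04 from limma). For BE(2)-C it was -0.78 ± 0.09 (SE, adjusted p = 0.0014 from limma). Their difference was 0.01 with a 95% confidence interval of -0.21 to 0.24. SOX9-AS1, antisense to SOX9, had 0.136 ± 0.0138 FPKM with siC and 0.287 ± 0.0447 with siI1 in Hep-G2 (SD, n = 3), at 19 to 52 reads per library. Its siI1 libraries thus lay above the siC libraries, opposite to SOX9, but its change was not called (0.71, adjusted p = 0.066 from limma).

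Of the 10 markers, 6 were tested in BE(2)-C. SOX9 was called lower, 1 of 6, against 14.8% of all 18656 tested genes, and IGF2 and GPC3 were called higher, 2 of 6, against 13.3%. The libraries of siC and siI1 did not overlap for 4 of the 6, compared with 45.0% of all tested genes. Of the 5 markers tested in both lines, IGF2, DLK1 and GPC3 changed differently between them, 3 of 5, against 40.2% of the 15362 genes tested in both.

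**Figure D2:**
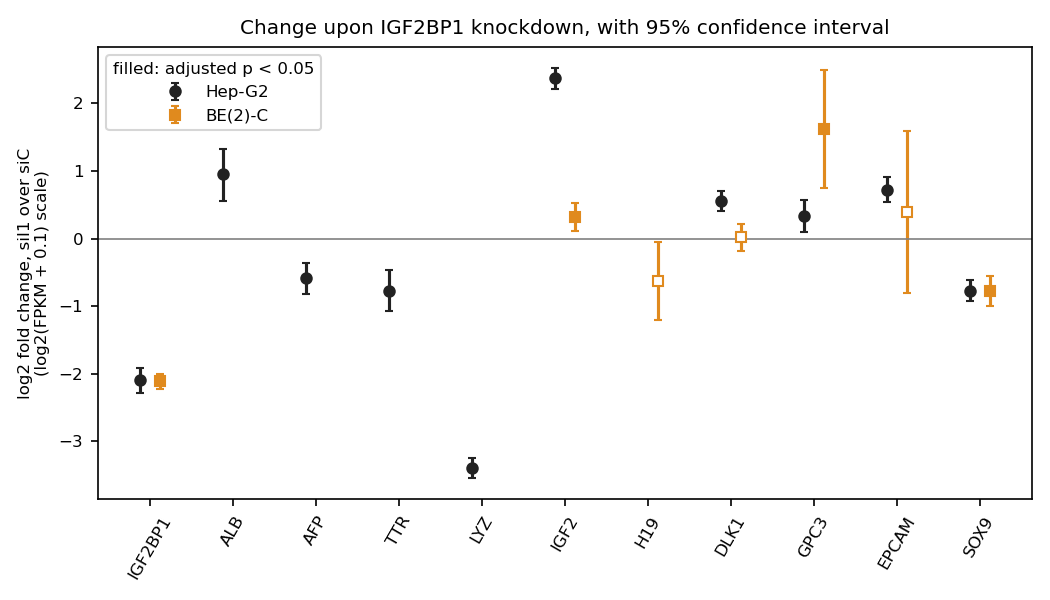
Log2 fold change of siI1 over siC on the log2(FPKM + 0.1) scale for IGF2BP1 and the tested markers, with 95% confidence intervals, for Hep-G2 (circles) and BE(2)-C (squares), filled where the adjusted p was below 0.05. IGF2BP1 and SOX9 lie at like values in both lines, at -2.10 and -2.11 and at -0.77 and -0.78, while IGF2 lies at 2.37 for Hep-G2 but at 0.32 for BE(2)-C.

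The order of the markers by level differed between the siRNAs in Hep-G2. With siC the order of the means was ALB, AFP, LYZ, GPC3, TTR, EPCAM, SOX9, IGF2, DLK1 and H19, and of these neighbours only EPCAM and SOX9 overlapped. With siI1 it was ALB, GPC3, AFP, IGF2, LYZ, EPCAM, TTR, SOX9, DLK1 and H19, with no neighbours overlapping. DLK1 stood above IGF2 within each of the 6 libraries of BE(2)-C. Over all 10, the markers held 2.32%, 2.25% and 2.27% of the counted reads with siC and 2.98%, 3.07% and 3% with siI1 in Hep-G2, and in BE(2)-C between 0.521% and 0.652%.

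**Figure D3:**
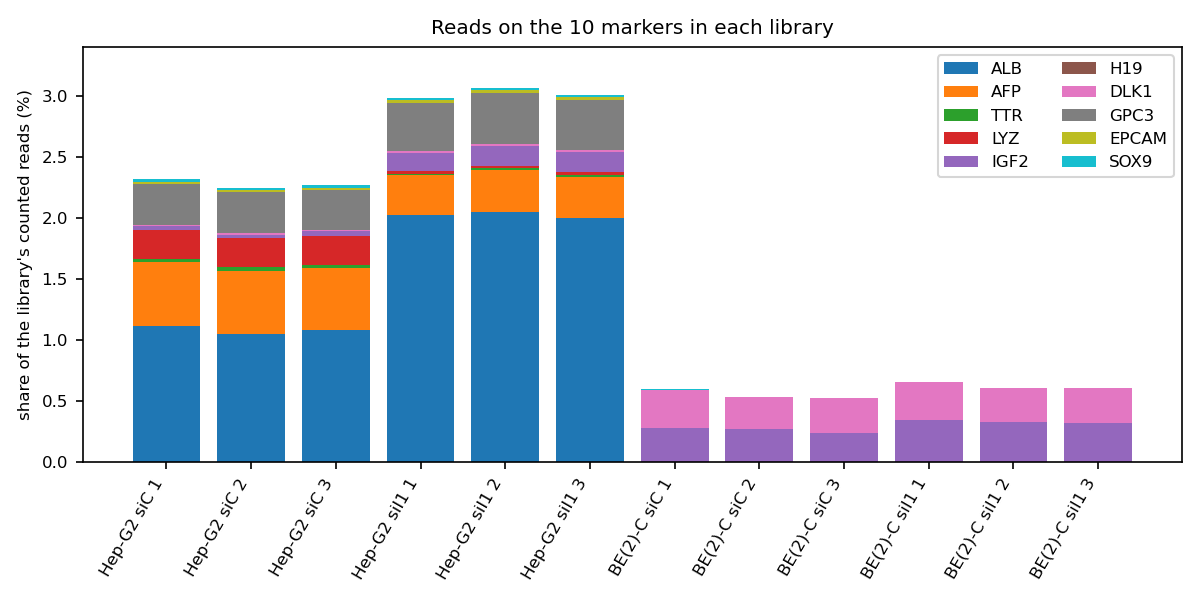
Share of the counted reads of each library, in percent, that fell on each of the 10 markers, stacked, for 6 Hep-G2 and 6 BE(2)-C libraries. ALB takes between 1.05% and 1.11% in the Hep-G2 siC and between 2.00% and 2.05% in the siI1 libraries, the LYZ segment shrinks, and nearly all of the BE(2)-C bars is IGF2 and DLK1.

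For each marker, the genes most like it were sought among 10617 protein-coding genes of Hep-G2 with a mean of at least 1 FPKM. The measure was the root mean square distance of log2(FPKM + 0.1), relative to the gene's own siC mean, over the 6 libraries. A small distance thus mostly reflects a like fold change, and a shared regulation was not tested. LYZ was followed most closely by DUSP6 (distance 0.071), SPRY4 (0.102) and MT1G (0.125). DUSP6 and SPRY4 encode inhibitors of growth factor and ERK signalling, and MT1G a metallothionein. In BE(2)-C SPRY4 was called higher (0.54, adjusted p = 3.8e-04 from limma), DUSP6 was not called and MT1G was not tested. The genes closest to IGF2 were RTN4RL2 (0.051), NUPR1 (0.078) and ERP27 (0.081). For AFP these were KCTD10 (0.014), COX20 (0.018) and DNAJA1 (0.021), and for ALB EPHB4 (0.025), UCK1 (0.030) and SARDH (0.031). The nearest gene was FGFR4 for GPC3 (0.011), RPS27L for DLK1 (0.025), CYP27A1 for EPCAM (0.023), GART for SOX9 (0.020) and TSPAN7 for TTR (0.033).

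Other genes of the liver were viewed by list, beside a median log2 fold change of 0.01 over all tested genes of Hep-G2. All 20 liver plasma protein genes were tested, of which 15 rose and 2 fell, with a median of 0.92. Of all tested genes of Hep-G2, 21.9% were called higher and 23.0% lower. HPX, encoding the haem carrier hemopexin, rose by 2.81 from a mean of 6.51 to 46.2 FPKM, and ORM1, an acute-phase protein, by 1.99 from 119 to 474 FPKM. The genes that fell were APOA2, an apolipoprotein of HDL, by 0.86 and FGG, the fibrinogen gamma chain, by 0.68. When the FPKM sums of all libraries were made equal, 15 were called higher and 5 lower. Of 18 adult hepatocyte enzymes 15 were tested, 9 rose and 1 fell (all tested genes, 21.9% and 23.0%), with a median of 0.68. ADH4, an alcohol dehydrogenase, rose by 2.54 from 7.81 to 46.0 FPKM, and the glucuronosyltransferase UGT2B7 fell by 1.45 from 50.4 to 18.4 FPKM. Macrophage, fibroblast and endothelial markers were low in Hep-G2, the macrophage list with the sums and the rise of CD14 given above. The fibroblast list summed to between 0.657 and 2.04 FPKM over its 6 genes, led by PDGFRB. The endothelial list summed to between 0.114 and 0.237 FPKM over 4 genes, led by PECAM1. In BE(2)-C the fibroblast list summed to between 25.2 and 29.5 FPKM with siC and between 35.8 and 37.8 with siI1. There LUM rose by 1.08 and DCN by 0.66, and the other fibroblast genes were not called.

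A classifier of hepatoblastoma tumours, defined on other samples, holds 8 genes of differentiated and 8 of immature tumours. Of the differentiated genes 5 were tested in Hep-G2 and called higher (all tested genes, 21.9%), with a median of 1.22. With an FPKM of 1 or more required, 3 were called higher and 0 lower. HPD, of tyrosine breakdown, rose by 1.19 from 169 to 387 FPKM and C1S, a complement protease, by 1.22 from 9.75 to 22.9 FPKM (both named after their values were seen). CYP2E1, with 1 to 2 reads per siC and 27 to 51 per siI1 library, reached the level needed for a test through its siI1 libraries alone. CYP2E1, HPD and ALDH2, all called higher, also count among the enzymes above, so that the counts of these lists are not separate. AQP9, at 1.47, rests on 2 to 8 reads per siC library. Of the immature genes, all 8 were tested, 3 fell and 2 rose (all tested genes, 23.0% and 21.9%), with a median of 0.19. The balance depended on the setting, with 2 lower and 4 higher after median centring and 3 lower and 4 higher with limma voom. Besides AFP, BUB1 and DLGAP5 of the mitotic spindle checkpoint and spindle fell, by 0.69 and 0.46, whereas DUSP9 rose by 1.33 from 148 to 374 FPKM and IGSF1 by 0.68 from 31.7 to 50.9 FPKM.

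Other oncofetal genes went both ways. Of 16, 13 were tested in Hep-G2, 7 fell and 3 rose (all tested genes, 23.0% and 21.9%), with a median of -0.24. AKR1B10, an aldo-keto reductase of liver tumours, fell by 1.94 from 485 to 127 FPKM. TPBG fell by 1.51, at 5 to 51 reads per library. The heparin-binding growth factor MDK rose by 1.5 from 64.7 to 184 FPKM and SPINK1, a trypsin inhibitor, by 0.87. Of these genes 10 were tested in BE(2)-C, with 1 called lower and 5 higher (all tested genes, 14.8% and 13.3%). The lower call was lost in 4 of 6 fits that left out a library.

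The biliary and progenitor list, which includes EPCAM and SOX9, had 13 of 18 genes tested in Hep-G2. Of these 7 fell and 4 rose (all tested genes, 23.0% and 21.9%), with a median of -0.24. Equal sums of FPKM gave 8 lower and 2 higher, and the fit without a trend 5 lower and 5 higher. CD24, PROM1 and LGR5 are also among the other oncofetal genes, and CD24 and LGR5 are among the 7 that fell in each list. The median of both lists is the value of PROM1, which was not called (adjusted p = 0.11 from limma). CLDN4, of tight junctions, fell by 1.41 from 34.3 to 12.8 FPKM and the transcription factor SOX4 by 1.19 from 28.6 to 12.4 FPKM. ANXA4, a membrane-binding annexin, rose by 1.74 from 24.8 to 83.0 FPKM. For BE(2)-C 12 were tested, with 3 called lower and 5 higher (all tested genes, 14.8% and 13.3%). Among the higher, PKHD1 reached the level needed for a test through its siI1 libraries alone. The higher calls were between 3 and 5 when a library was left out. Of 14 foregut and gut epithelial genes only 4 were tested in Hep-G2, and limma called 0 of them. The count was also 0 at an unadjusted p below 0.05 and with limma voom, but a replicate block gave 1 lower.

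Of the 17 regulators of AFP and ALB transcription, all tested in Hep-G2, 9 rose and 2 fell, with a median of 0.32. Of all tested genes 21.9% were called higher and 23.0% lower. CEBPA, a factor of the differentiated hepatocyte, rose by 1.85 from 45.6 to 165 FPKM and FOXA3, a forkhead factor of endoderm, by 0.86 from 13.5 to 24.8 FPKM. The nuclear receptor NR5A2 fell by 0.91 from 1.22 to 0.604 FPKM and PROX1, a homeobox gene of hepatoblasts, by 0.45. The siC and siI1 libraries of PROX1 overlapped. Scaling to equal sums of FPKM gave 6 higher and 4 lower, and the lower calls were between 1 and 3 when a library was left out.

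**Figure D4:**
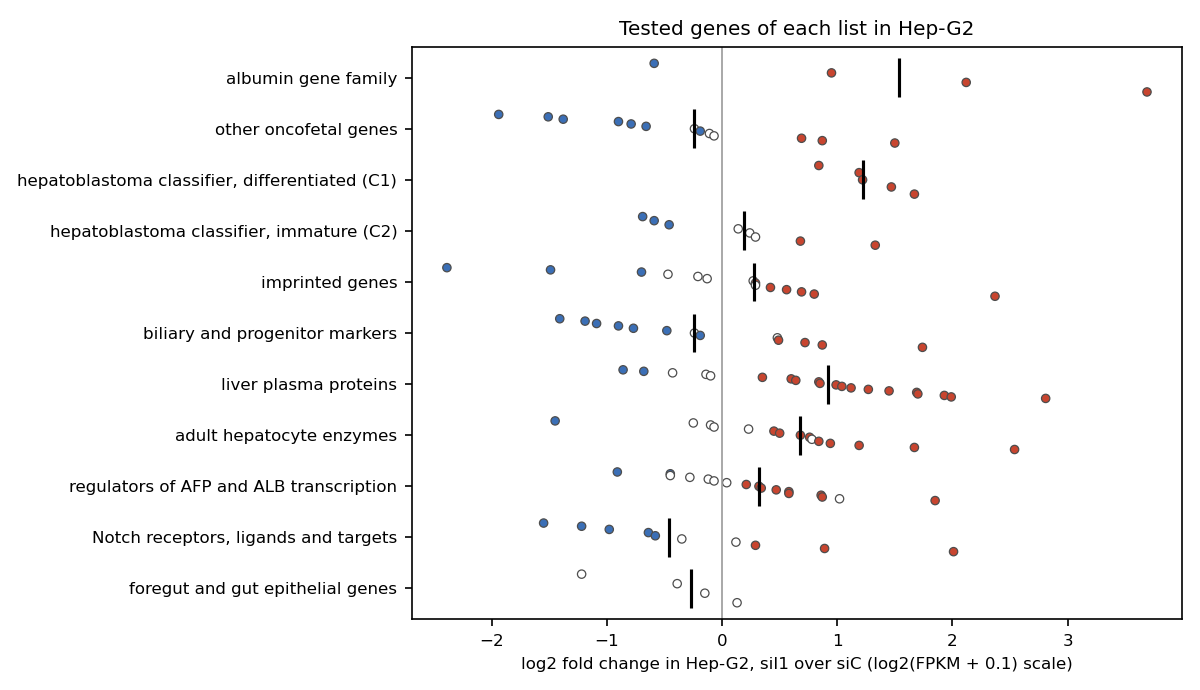
Log2 fold change of siI1 over siC in Hep-G2 on the log2(FPKM + 0.1) scale for the tested genes of each list, with a point per gene (red, called higher; blue, called lower; white, not called) and a black line at the median of the list. The medians of the plasma proteins and of the differentiated hepatoblastoma genes lie at 0.92 and 1.22, and those of the other oncofetal genes and of the biliary and progenitor markers at -0.24. The oncofetal and the biliary lists share genes, and both medians are the value of PROM1, a gene of both lists.

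DLK1 and IGF2 belong to imprinted clusters. Of 23 imprinted genes 14 were tested in Hep-G2, 3 fell and 6 rose (all tested genes, 23.0% and 21.9%), with a median of 0.28. PHLDA2, a regulator of placental growth, fell by 2.39 from 11.4 to 2.12 FPKM and GRB10, an adaptor of growth factor receptors, by 1.49 from 6.67 to 2.31 FPKM. Besides IGF2, GNAS, encoding a G protein subunit, rose by 0.80 from 51.8 to 90.3 FPKM. MEG3, the maternally expressed noncoding neighbour of DLK1, had at most 6 reads in any Hep-G2 library. The BE(2)-C libraries had 37.0, 34.0 and 41.5 FPKM with siC and 61.6, 60.2 and 62.8 with siI1, a rise by 0.72. Of the 13 imprinted genes tested in BE(2)-C, 7 rose and 0 fell (all tested genes, 13.3% and 14.8%). The higher calls were 5 without the trend and between 5 and 7 when a library was left out.

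In the Notch list, to whose receptors DLK1 binds, 10 of 16 genes were tested in Hep-G2. Of these 5 fell and 3 rose (all tested genes, 23.0% and 21.9%), with a median of -0.47. The ligand JAG1 fell by 1.55 from 29.9 to 10.2 FPKM and RBPJ, the DNA-binding factor of the pathway, by 1.22 from 6.09 to 2.56 FPKM. DLK2, the paralogue of DLK1, rose by 2.01, at 7 to 51 reads per library, and HES4 by 0.89 from 14.1 to 26.4 FPKM. For BE(2)-C 9 of the genes were tested, with 3 called lower and 2 higher (all tested genes, 14.8% and 13.3%). The higher calls were 1 in 5 of 6 fits that left out a library. Few genes of the liver were expressed there, and these shares of all tested genes also stand beside the counts that follow. Of the plasma proteins 1 was tested and 0 were called, of the enzymes 3 were tested and 2 called lower (between 1 and 2 when a library was left out), and of the foregut and gut genes 2 were tested and 0 were called. The single differentiated hepatoblastoma gene tested was called lower, a call lost in 3 of 6 fits that left out a library and without the trend. Of the immature hepatoblastoma genes 7 were tested, with 3 called lower and 2 higher, but the lower calls were between 0 and 2 when a library was left out. Of the regulators 9 were tested, with 3 called lower and 2 higher, and the higher calls were between 1 and 2 when a library was left out.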

How the data were processed

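The authors clipped reads with cutadapt 1.14, aligned them to hg38 with HISAT2 2.1.0, counted them per gene with featureCounts 1.5.3 and normalized each cell line with edgeR 3.30.3, and SAMtools 1.5 is named in their notes. The library columns they deposited hold FPKM, a unit taken from the values, since multiplying by gene length gave whole numbers of a unit per library (tolerance 0.01, 100% of values), from which the reads per gene were recovered. Reads from PCR are not independent molecules, so read floors cover counting error only. The deposited columns of the authors' fold changes, p-values and FDR were not used.

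Here log2(FPKM + 0.1) was compared by limma (version 3.58.1, R 4.3.3), the variance following the level, at a Benjamini-Hochberg threshold of 0.05 across the tested genes, those with 0.1 FPKM in 3 or more libraries of the line. This scale understates changes of low genes. The lines were compared as an interaction over all 12 libraries. The fits were tested on simulated data, of which no outcome is given here. The markers and lists were chosen with earlier results of these data known. Besides the markers and IGF2BP1, named genes are the up to 2 lower and 2 higher called genes of each list with the largest change in Hep-G2, the 3 genes most like each marker, and overlapping or adjoining genes, and others are named for comparison, chosen after their values were seen. Of the like genes of GPC3, DLK1, EPCAM, SOX9 and TTR the nearest is given. Alternatives covered pseudocount, filter, trend, scaling, limma voom on the reads, a replicate block and leaving out each library. Handling and plotting used the R package data.table (version 1.17.8), Python 3.11.15, NumPy 2.4.6 and Matplotlib 3.10.9.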

Additional observations from a re-analysis of the deposited data

Results flagged for a closer look

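The change upon IGF2BP1 knockdown differed between the cell lines by an interaction test for 3 of the 5 markers tested in both, beside 40.2% of all 15362 genes tested in both. The difference, Hep-G2 minus BE(2)-C, was 2.05 for IGF2 and 0.55 for DLK1 on the log2 scale. It was -1.29 for GPC3, which had 1 to 29 reads per BE(2)-C library, and at a pseudocount of 1 this difference was -0.11 and not called (adjusted p = 0.45 from limma). The part of the level, which was higher in BE(2)-C for IGF2 and DLK1 and higher in Hep-G2 for GPC3, was not tested.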

How the results depend on the processing

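Of the 23 single-gene changes and differences, none changed sign while called under the alternatives run. The 4 markers called lower in Hep-G2 and the 1 called lower in BE(2)-C stayed at these counts under every alternative, and IGF2, DLK1 and EPCAM stayed called higher in Hep-G2. The count called higher in Hep-G2 was 3 without the expression filter, since ALB and GPC3 were lost, and between 4 and 5 when a library was left out. In BE(2)-C, where 2 were called higher, the count was 1 without the filter, 1 with an FPKM of at least 1 (which leaves GPC3 untested) and 1 without the trend. Leaving out a library gave between 0 and 2, the 0 being without BE(2)-C siI1 replicate 1, as IGF2 and GPC3 were both lost (IGF2 0.26, GPC3 1.38). The number of all genes called higher in BE(2)-C was between 1519 and 2103 with a library left out, against 2489, and fell most without siI1 replicate 3. The cause was not tested.

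Equal sums of FPKM shifted the Hep-G2 median from 0.01 to -0.15, and median centring shifted it to 0.09. The share of higher among called genes moved from 48.8% to 35.5% with equal sums and to 57.6% with median centring. With equal sums the markers moved alike, with GPC3 at 0.16 and ALB at 0.78, both still called. The difference of the EPCAM change between the lines was called at a pseudocount of 1 (0.64) and without BE(2)-C siC replicate 3 (0.85).

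With a replicate block the members called higher in BE(2)-C were 1, as GPC3 was lost (adjusted p = 0.055 from limma). Whether numbers pair the libraries was checked by the correlation across genes, which are not independent, of each siC library's deviations with those of the siI1 library of the same number. For Hep-G2 r was 0.33, 0.32 and -0.08, and for BE(2)-C it was 0.20, -0.02 and 0.02. Some but not all libraries correlated best with their own number, and with 3 libraries per siRNA this check cannot settle whether the numbers pair them. The block also called 1 foregut and gut gene lower in Hep-G2, where 0 were called without it. Precision is limited by depth for H19 in both lines and for GPC3 and EPCAM in BE(2)-C.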
